A study of Mus musculus with 8 samples.

Results

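The axon guidance receptors and ligands of the ephrin, Slit-Robo and netrin systems were examined in the P3 mouse cortex. They were taken by symbol from the count files as the protein-coding Eph receptors (EphA and EphB), ephrins, Slits, Robos, secreted netrins (Ntn1, Ntn4 and Ntn5), netrin-G proteins, UNC5 receptors, Dcc and Neo1. The rule found 40 genes among the 48709 listed, and Ntn3, which it also covers, was not analysed here. The study sequenced RNA from the cortex of C57BL/6J pups, dissected as the dorsal telencephalon, from 4 dcKO_hGFAP-Cre mice (dcKO) and 4 controls. dcKO mice carry floxed alleles on both copies of Smarcc1 (BAF155) and Smarcc2 (BAF170), the scaffolding subunits of the BAF (mSWI/SNF) chromatin remodelling complex, together with hGFAP-Cre. In that line a human GFAP promoter drives Cre recombinase in radial glia of the dorsal telencephalon, so neurons and glia born earlier, immigrant cells and vessels are expected to keep both genes. The study's methods describe controls that carry 1 floxed copy of each gene and the same Cre, whereas the deposited design text calls them wild types. Controls may therefore share Cre and a heterozygous deletion, and nothing in the labels says whether littermates were used.

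These genes encode the contact and diffusible cues that steer growing axons, sort cells at tissue borders and position synapses. Ephrins are membrane-bound ligands: ephrin-As are tethered by a lipid anchor and bind mainly EphA receptors, ephrin-Bs span the membrane and bind mainly EphB receptors, and both sides can signal. Slits are secreted repellents read by Robo receptors, netrins attract axons through DCC family receptors and repel them through UNC5 receptors, and netrin-Gs are lipid-anchored relatives that bind other partners at synapses. In the cortex these systems order thalamocortical and callosal projections and the contacts between migrating neurons and radial glia.

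Most of the changes were decreases, and they fell on receptors as well as ligands. Of the 40 genes, 38 had enough counts to be tested. Of those 38, 19 were lower and 5 were higher in dcKO at an adjusted p under 0.05 in edgeR's quasi-likelihood test. That is 63.2% of the members tested, against 37.5% of all 16525 genes tested. Among all genes, 18.9% were lower and 18.6% were higher, or 3128 and 3074, and scaling by library totals alone moved this split to 2102 and 4584 and that of the members to 17 and 5. With a log2 change of 0.5 or more in size required as well, 20 members passed (52.6%, 16 lower and 4 higher), against 21.6% of all genes, 9.51% lower and 12.1% higher. In 23 of the 38 (60.5%) the 4 mutant and 4 control values did not overlap, 19 with the mutants below and 4 with the mutants above, against 34.4% of all genes. The median log2 fold change was -0.46 over the 38 members and 0.02 over all genes tested.

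The largest rise was that of Robo3, the receptor of commissural axons, and the largest fall was that of Ephb3. Ntn1, Epha10, Slit2 and Efnb3 were the other members that rose. All 4 UNC5 receptors, the neogenin receptor Neo1, 3 of 5 EphB receptors and 3 of 5 ephrin-A ligands fell. Epha1 and Ntn5 were not tested, with 1 to 9 and 2 to 11 counts per library. In bulk tissue, fewer cells of a type and less RNA per cell cannot be told apart.

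**Figure D1:**
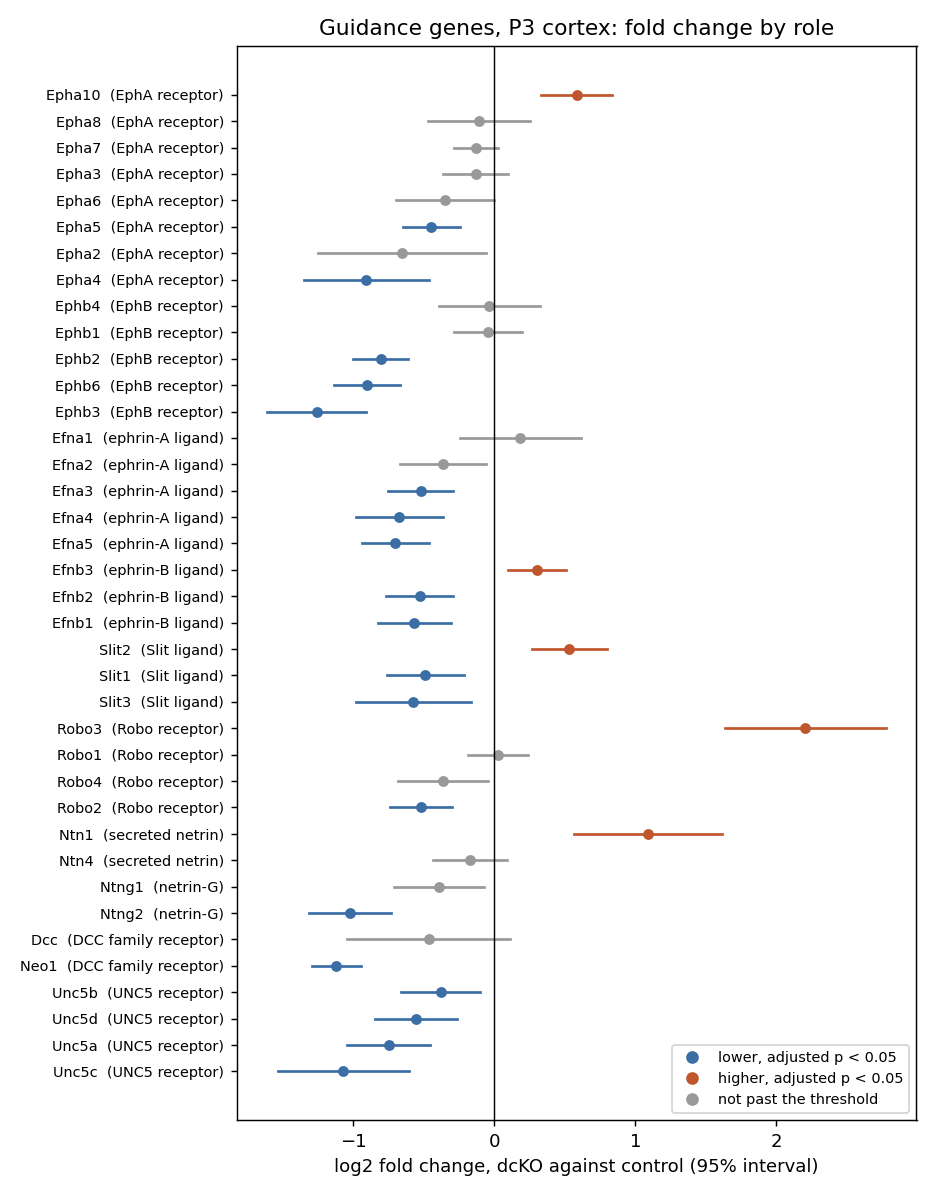
The log2 fold change of dcKO against control (horizontal axis) with its 95% interval for the 38 tested members, grouped by role. Blue marks the 19 members that fell, orange the 5 that rose and grey the 14 that did not pass, and Robo3 at 2.21 and Ephb3 at -1.26 are the extremes.

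The libraries held 21126713 to 31805395 counts in control and 22002784 to 32110285 in dcKO. CPM are counts scaled to a common library total, with each total first multiplied by its TMM normalization factor. Smarcc1 fell from 159 ± 11.2 to 81.2 ± 5.90 CPM (SD, n = 4). Smarcc2 fell from 483 ± 14.7 to 283 ± 28.2 CPM, and the groups did not overlap for either gene. The log2 fold change was -0.97 for Smarcc1 (SE 0.08, edgeR adjusted p = 5.4e-06) and -0.77 for Smarcc2 (SE 0.08, edgeR adjusted p = 2.3e-05). Both transcripts remained detectable in every mutant, in whole tissue that includes cells outside the Cre lineage. Markers of other cells also differed between the groups, and their part in the results below was not tested. Summed over a list of 12 markers, striatal projection neuron genes reached 229 to 342 CPM in controls and 476 to 1013 CPM in mutants, with 8 of 12 higher. Ppp1r1b alone had 34.2 to 49.1 CPM in controls and 343, 276, 342 and 271 CPM in dcKO replicates 1 to 4. It was the largest part of the 476 CPM in dcKO replicate 2. Cortical excitatory neuron genes, which define the labelled tissue, were present in every library and summed to 2732 to 3089 CPM in controls and 1714 to 1888 CPM in mutants, with 9 of 12 lower and Camk2a higher. GABAergic interneuron genes rose (10 of 12), oligodendrocyte precursor genes fell (9 of 10), endothelial genes fell (7 of 12) and microglial genes rose (6 of 8). Choroid plexus genes summed to 626 and 1193 CPM over 8 genes in dcKO replicates 1 and 2, most of it Ttr, against at most 24.6 CPM in any other library. Otx2 of that list was higher in all 4 mutants, at 8.55, 13.6, 3.07 and 3.95 CPM in replicates 1 to 4 against at most 0.276 CPM in controls. Radial glia and astrocyte genes stood at 3101 CPM in dcKO replicate 3 over 12 genes, against 2184 to 2298 CPM in controls and at most 1919 CPM in the other mutants, with 3 of 12 higher and 2 lower. Cajal-Retzius cell genes were higher for 4 of 6 and pericyte genes lower for 3 of 8, with overlapping sums. Meningeal fibroblast genes were highest in dcKO replicates 1 and 3, at 461 and 353 CPM over 9 genes. With dcKO replicates 3 and 4 alone against all controls, 16 members were lower and 4 higher, among 1581 lower and 1388 higher over all genes, and with dcKO replicates 2 and 4 alone 16 were lower and 5 higher. Without dcKO replicate 3, 18 were lower and 5 higher. The comparisons with 2 mutants were chosen after the data were seen.

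Upstream sequences are shown for 4 members of different roles that passed the test. RefSeq (GRCm38.p6) gave an upstream region for 35 of the 40 members. Shown are the 2 largest rises and 2 largest falls for which the RefSeq start lay within 100 bases of the GENCODE start. Each is the 150 bases upstream of whichever start came first, 5′ to 3′ on the gene's strand. Robo3 is at chr9:37433247-37433396 on the minus strand, Slit2 at chr5:47982988-47983137 on the plus strand, Ephb3 at chr16:21204605-21204754 on the plus strand and Neo1 at chr9:59036442-59036591 on the minus strand. Capitals mark matches, on either strand, to the homeodomain core TAATTA, the proneural E-box CAGATG, the GC box GGGCGG and the inverted CCAAT box ATTGG, and these 4 motifs share no letters where they match below.
Robo3: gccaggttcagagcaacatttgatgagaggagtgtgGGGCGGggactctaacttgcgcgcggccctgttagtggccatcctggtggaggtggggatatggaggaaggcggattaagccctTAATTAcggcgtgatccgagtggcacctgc
Slit2: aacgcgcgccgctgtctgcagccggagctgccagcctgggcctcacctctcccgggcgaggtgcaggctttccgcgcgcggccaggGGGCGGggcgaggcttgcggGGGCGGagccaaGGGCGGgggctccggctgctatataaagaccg
Ephb3: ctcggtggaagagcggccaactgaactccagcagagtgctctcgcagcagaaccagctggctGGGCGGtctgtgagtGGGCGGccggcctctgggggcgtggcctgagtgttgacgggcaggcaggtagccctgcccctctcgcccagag
Neo1: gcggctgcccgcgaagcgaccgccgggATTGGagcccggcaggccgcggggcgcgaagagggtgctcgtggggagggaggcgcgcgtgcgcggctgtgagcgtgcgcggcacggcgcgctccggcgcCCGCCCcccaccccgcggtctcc
A TAATTA match lay upstream of Robo3, and GC boxes lay upstream of all 4. Over 32851 RefSeq promoters, with the 150 bases before the RefSeq start searched, 2.73% held TAATTA, 8.81% CAGATG, 28.6% GGGCGG and 24.5% ATTGG. Of the 17 members that fell and had an entry, 0 held TAATTA, 1 held CAGATG, 10 held GGGCGG and 7 held ATTGG. Of the 3 that rose and had an entry, 1, 0, 3 and 1 did. The median number of CpG dinucleotides in that window was 14 for the members that fell and 10 for those that rose. It was 11 over the 35 members with an entry and 4 over all promoters. GC boxes also lay upstream of members that did not pass, such as Epha8, and were absent from others, such as Epha3. A match is a description of the sequence and not a binding site.

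Among the EphB receptors, Ephb3, Ephb6 and Ephb2 fell and Ephb1 and Ephb4 did not pass the test. Ephb3, a receptor tyrosine kinase known for guiding callosal axons (chromosome 16, 21204755 to 21223305, plus strand, GRCm38), had 32.3, 33.2, 33.03 and 30.4 CPM in control replicates 1 to 4 and 9.70, 15.1, 17.8 and 11.3 CPM in dcKO replicates 1 to 4. Every mutant lay below every control, with replicates 1 and 4 lowest. Its expression was 2.39-fold lower (log2 fold change -1.26, SE 0.16, edgeR adjusted p = 1.1e-04). Ephb6, which lacks an active kinase, had 134, 131, 147 and 162 CPM in the controls, in replicate order, and 67.5, 69.0, 78.6 and 92.3 CPM in the mutants. The groups did not overlap and the fall was 1.87-fold (log2 fold change -0.90, SE 0.11, edgeR adjusted p = 6.7e-05).

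Ephb2, a kinase-active receptor at synapses and growing axons, had 159, 163, 197 and 183 CPM in the controls, in replicate order, and 98.1, 97.3, 93.6 and 113 CPM in the mutants. All mutants were below all controls and close to each other, with a 1.75-fold fall (log2 fold change -0.81, SE 0.09, edgeR adjusted p = 4.2e-05). Ephb1, which steers ipsilateral retinal axons, ranged from 96.7 to 115 CPM in controls and 86.0 to 119 CPM in mutants (95% interval of the log2 fold change, not adjusted for the number of genes, -0.28 to 0.19, edgeR adjusted p = 0.78). Its direction turned without dcKO replicate 2 (0.02) or 4 (0.02). The vascular receptor Ephb4 ranged from 9.07 to 13.6 and 7.85 to 12.2 CPM (interval -0.39 to 0.32, edgeR adjusted p = 0.88). Its direction turned without control replicate 3 (0.09) or dcKO replicate 4 (0.10).

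The 3 ephrin-B ligands moved in both directions. Efnb2, found on arterial endothelium and on neurons, had 172, 173, 216 and 186 CPM in the controls, in replicate order, and 131, 142, 104 and 140.2 CPM in the mutants. No mutant reached the lowest control, and the fall was 1.44-fold (log2 fold change -0.53, SE 0.11, edgeR adjusted p = 0.0027). Efnb1, expressed in cortical progenitors and encoded on the X chromosome, had 43.4, 35.2, 53.3 and 41.1 CPM in the controls, in replicate order, and 30.9, 29.7, 26.1 and 30.2 CPM in the mutants. Mutants lay in a narrow band under all controls, 1.48-fold lower on average (log2 fold change -0.57, SE 0.12, edgeR adjusted p = 0.0029).

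Efnb3, the midline ephrin that holds back corticospinal axons, was the most abundant ephrin-B per length and rose slightly. It had 281, 284, 337 and 282 CPM in the controls, in replicate order, and 371, 369, 309.7 and 412 CPM in the mutants. The groups overlapped, since dcKO replicate 3 lay below control replicate 3. The log2 fold change was 0.30 (SE 0.10, edgeR adjusted p = 0.025). The call was lost without control replicate 1 (0.27), 2 (0.28) or 4 (0.27) and without dcKO replicate 1 (0.29) or 2 (0.29), and with dcKO replicates 3 and 4 alone (0.29), with adjusted p up to 0.15.

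**Figure D2:**
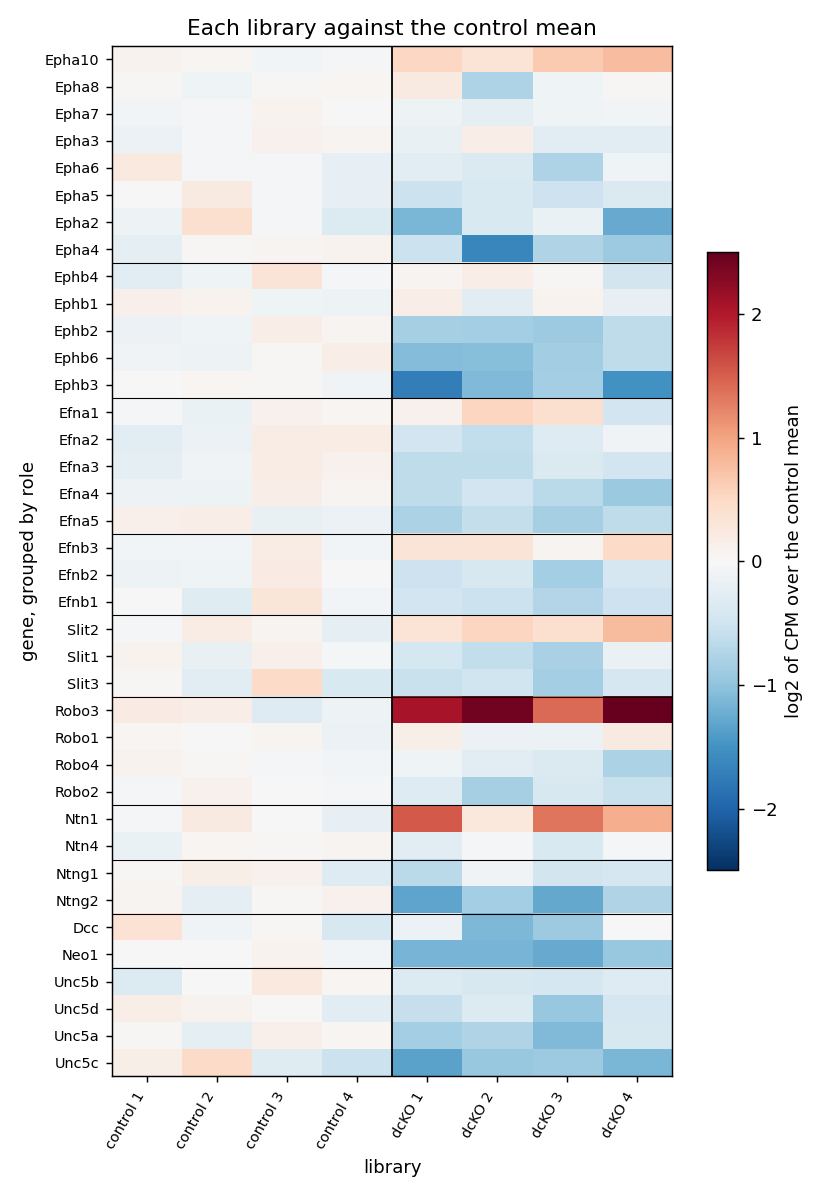
Each library (columns) as log2 of CPM over the control mean for the 38 tested members (rows, grouped by role), red above and blue below that mean. Robo3 is red in all 4 mutants, Ntn1 is palest in dcKO replicate 2, and Epha4 is darkest blue there.

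Of the 8 EphA receptors tested, Epha4 and Epha5 fell and Epha10 rose. Epha4, which binds ephrins of both classes and acts in corticospinal and striatal wiring, had 199, 237, 243 and 246 CPM in the controls, in replicate order, and 159, 74.4, 136 and 122.5 CPM in the mutants. Every mutant was below every control and dcKO replicate 2 was far below the other 3. On average the fall was 1.88-fold (log2 fold change -0.91, SE 0.20, edgeR adjusted p = 0.0062), and without that replicate it was -0.74 on the log2 scale. That replicate also had the lowest summed striatal marker level of the mutants, 476 CPM. Between the groups the directions were opposite, since striatal sums were 229 to 342 CPM in controls and 476 to 1013 CPM in mutants. In dcKO replicate 2, however, 276 CPM of the sum was Ppp1r1b. There Drd1 (7.58 CPM) and Pde10a (82.1 CPM) lay below every control, as Epha4 did. Tac1, Isl1 and Rarb lay above every control, and the rest of the list lay within the control range. The relation of Epha4 to these markers was not tested. Epha10, a receptor without kinase activity, had 11.6, 11.3, 10.5 and 10.6 CPM in the controls, in replicate order, and 15.8, 14.0, 17.3 and 18.8 CPM in the mutants. All mutants lay above all controls (log2 fold change 0.58, SE 0.12, edgeR adjusted p = 0.0022).

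Epha5, a receptor for ephrin-A gradients in topographic maps, fell without overlap of the groups (mean 218 to 160.3 CPM, log2 fold change -0.45, SE 0.09, edgeR adjusted p = 0.0026). Epha7, with roles in topographic maps and cell sorting, had mutants below all controls by a small margin (107 to 97.4 CPM) and did not pass the test (log2 fold change -0.13, SE 0.07, edgeR adjusted p = 0.17). Epha6 (interval -0.70 to -0.0014), Epha8 (-0.47 to 0.25), Epha2 (-1.25 to -0.06) and Epha3 (-0.36 to 0.10) did not pass either, with edgeR adjusted p of 0.10, 0.63, 0.080 and 0.35. Epha2 passed without dcKO replicate 3 (-0.88, adjusted p = 0.027) and with lane as a block (adjusted p = 0.0499), and Epha3 without dcKO replicate 2 (-0.25, adjusted p = 0.049). Epha8 turned direction without dcKO replicate 2 (0.05).

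Of the ephrin-A ligands, Efna3, Efna4 and Efna5 fell. Efna5, the ligand known for graded expression across cortical areas, had 36.2, 37.3, 28.98 and 29.96 CPM in the controls, in replicate order, and 19.2, 22.0, 18.7 and 21.3 CPM in the mutants. The groups did not overlap and the fall was 1.63-fold (log2 fold change -0.70, SE 0.11, edgeR adjusted p = 4.5e-04). Efna4, also known for a role at skull sutures, had 7.82, 7.74, 9.50 and 8.96 CPM in the controls, in replicate order, and 5.47, 6.10, 5.32 and 4.498 CPM in the mutants. Mutants were all below controls (log2 fold change -0.67, SE 0.14, edgeR adjusted p = 0.0029).

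Efna3, the most abundant ephrin-A per length, had 46.6, 51.5, 62.2 and 58.5 CPM in the controls, in replicate order, and 35.4, 35.0, 42.5 and 39.4 CPM in the mutants. Again no mutant reached a control, with a 1.44-fold fall (log2 fold change -0.52, SE 0.11, edgeR adjusted p = 0.0024). With dcKO replicates 3 and 4 alone against all controls it did not pass (-0.42, adjusted p = 0.051). Efna2 fell short of the threshold (interval -0.67 to -0.06, edgeR adjusted p = 0.058) but passed without control replicate 1 (-0.45, adjusted p = 0.024) or dcKO replicate 4 (-0.45, adjusted p = 0.018). It also passed with lane as a block (adjusted p = 0.013), with DESeq2 (adjusted p = 0.042) and with no filter on low counts (adjusted p = 0.032). Efna1, which is abundant in endothelium, was not distinguished from control (interval -0.25 to 0.62, edgeR adjusted p = 0.49). Efna1, Efna3 and Efna4 lie in a row on chromosome 3, separated by 32756 and 10424 bases. In the annotation, 14.1% of Efna3 exon length and 10.5% of Efna4 exon length are covered by antisense genes that had at most 1.39 CPM. Whether counting was strand-specific is not given in the sources used here.

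Among the Slits, the secreted repellents that bind Robos, Slit1 and Slit3 fell and Slit2 rose. Slit1, the most abundant Slit per length, had 94.6, 78.0, 97.6 and 85.7 CPM in the controls, in replicate order, and 65.9, 57.7, 50.7 and 79.0 CPM in the mutants. The groups overlapped, because dcKO replicate 4 exceeded control replicate 2, and the mean fall was 1.40-fold (log2 fold change -0.49, SE 0.13, edgeR adjusted p = 0.0096). Slit2, which patterns midline and corticofugal tracts, had 22.5, 26.3, 24.3 and 19.5 CPM in the controls, in replicate order, and 29.4, 33.8, 30.4 and 39.9 CPM in the mutants. Each mutant exceeded each control (log2 fold change 0.53, SE 0.12, edgeR adjusted p = 0.0051).

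Slit3, which also acts outside the nervous system, had 10.2, 8.18, 14.0 and 7.71 CPM in the controls, in replicate order, and 6.80, 7.12, 5.53 and 7.49 CPM in the mutants. The groups did not overlap, though control replicate 4 was close to dcKO replicate 4, and control replicate 3 was the highest (log2 fold change -0.57, SE 0.19, edgeR adjusted p = 0.030). The call was lost without control replicate 3 (-0.37, adjusted p = 0.11) or without dcKO replicate 1 (-0.58), 2 (-0.61) or 3 (-0.49). With dcKO replicates 3 and 4 alone, or 2 and 4 alone, against all controls, neither Slit1 nor Slit3 passed.

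The Robo receptors split, with Robo3 higher, Robo2 lower and Robo1 and Robo4 not past the threshold. Robo3 lets commissural axons cross the midline before they respond to Slits (chromosome 9, 37415669 to 37433246, minus strand, GRCm38), and it had 13.4, 13.1, 9.36 and 10.7 CPM in control replicates 1 to 4 and 48.4, 61.7, 30.98 and 72.7 CPM in dcKO replicates 1 to 4. All mutants lay far above the controls, from 30.98 to 72.7 CPM against at most 13.4 CPM. The rise was 4.61-fold (log2 fold change 2.21, SE 0.25, edgeR adjusted p = 2.0e-04), and between 2.03 and 2.39 on the log2 scale with any 1 library left out. Thalamus and midbrain markers summed to 91.9 to 117 CPM in controls and 154 to 161 CPM in mutants over 12 genes. Of these, 6 were higher and Tph2 was lower, with Gbx2 at 0 in some controls. Most of each sum came from Slc17a6 and Foxp2, which did not pass (edgeR adjusted p = 0.18 and 0.094). Slc17a6 had 47.4 to 56.4 CPM in controls and 50.3 to 78.3 CPM in mutants. Foxp2 had 23.0 to 38.8 CPM in controls and 28.7 to 65.8 CPM in mutants. Of the markers that rose, Lhx9 was at 11.1, 17.1, 10.1 and 13.4 CPM, Gbx2 at 1.41, 1.95, 1.09 and 1.51 CPM and Pou4f1 at 3.08, 4.41, 2.73 and 3.02 CPM in dcKO replicates 1 to 4. These 3 were lowest in replicate 3, as Robo3 was, and highest in replicate 2, where Robo3 was second to replicate 4. The others that rose had a different order. Tcf7l2 (5.30 CPM) and Six3 (3.05 CPM) were lowest in replicate 2, and Th (1.64 CPM) was highest in replicate 3. The sum of the list was highest in replicate 1, at 161 CPM. The part of these markers in the rise of Robo3 was not tested.

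Robo2, a Slit receptor of cortical and thalamic axons, had 277, 307, 286 and 275 CPM in the controls, in replicate order, and 228, 160.1, 216 and 194 CPM in the mutants. The mutants were all below the controls, with dcKO replicate 2 lowest and a 1.44-fold fall (log2 fold change -0.52, SE 0.10, edgeR adjusted p = 0.0019). Robo1, its paralogue on the same chromosome, ranged from 149 to 172 CPM in controls and 148 to 192 CPM in mutants (interval -0.19 to 0.24, edgeR adjusted p = 0.85). Its direction turned without control replicate 4 (-0.03) or without dcKO replicate 1 (-0.02) or 4 (-0.03).

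Robo4, the Robo of endothelial cells, ranged from 10.3 to 11.4 CPM in controls and 6.22 to 10.05 CPM in mutants. The groups did not overlap, but the test was not passed (log2 fold change -0.36, SE 0.15, edgeR adjusted p = 0.069). It was passed without dcKO replicate 1 (-0.47, adjusted p = 0.039), with lane as a block (adjusted p = 0.038), with DESeq2 (adjusted p = 0.048) and with dcKO replicates 3 and 4 alone or 2 and 4 alone (adjusted p = 0.046 and 0.045). Endothelial markers summed to 305 to 388 CPM in controls and 170.4 to 277 CPM in mutants, lowest in dcKO replicate 4 as Robo4 was, and their part was not tested. Robo3 and Robo4 lie on opposite strands of chromosome 9 with their 3′ ends 553 bases apart.

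**Figure D3:**
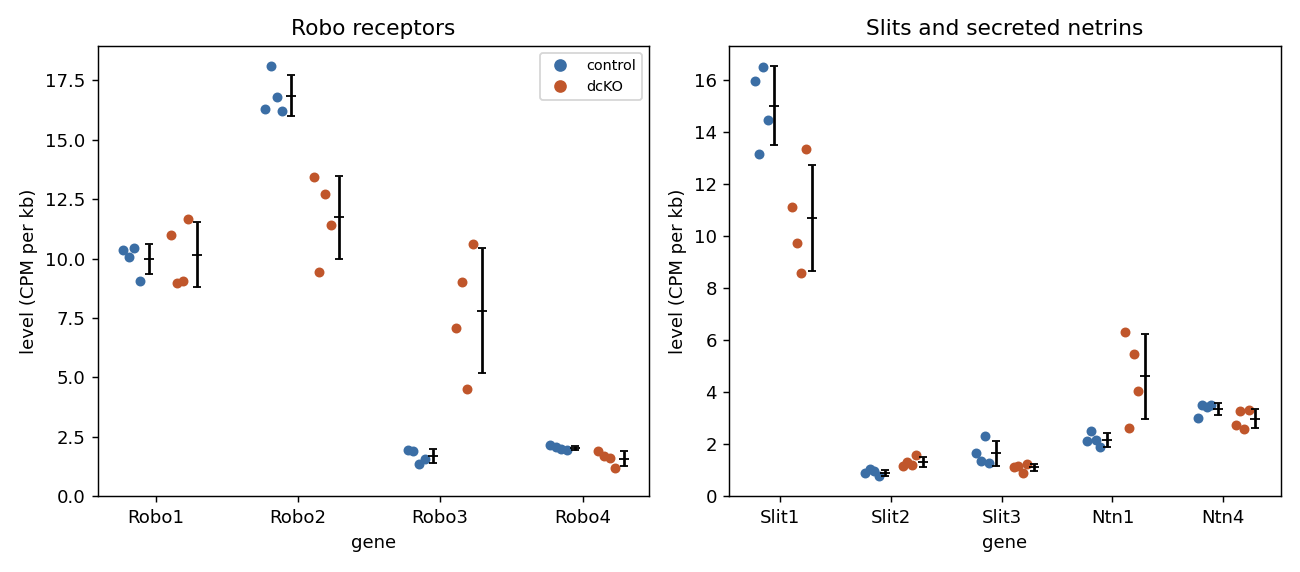
Level per library in CPM per kb of exon (vertical axis) for the Robos, left, and the Slits and secreted netrins, right, with control in blue, dcKO in orange and the black dash and bar giving mean and SD (n = 4). Robo3 and Ntn1 sit higher in mutants, Robo2 and Slit1 lower, and dcKO replicate 2 is the lowest Ntn1 mutant.

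Netrin-1 rose, and of its receptors Neo1 and all 4 UNC5 genes fell. Ntn1 (chromosome 11, 68209364 to 68400823, minus strand, GRCm38), a diffusible cue that attracts or repels axons depending on the receptor, had 13.4, 15.8, 13.5 and 11.8 CPM in control replicates 1 to 4 and 39.6, 16.4, 34.3 and 25.5 CPM in dcKO replicates 1 to 4. Every mutant was above every control, dcKO replicate 2 only by a little, and the rise was 2.13-fold (log2 fold change 1.09, SE 0.24, edgeR adjusted p = 0.0053). With dcKO replicates 2 and 4 alone against all controls it was 0.63 on the log2 scale (adjusted p = 0.027). Across the mutants, Ntn1 was higher where the summed striatal marker level was higher, except that replicates 1 and 3 were reversed (980.0, 476, 1013 and 659.5 CPM for replicates 1 to 4), and this relation was not tested. Ntn4, a laminin-like netrin of vessels and cortex, had 11.3, 13.1, 12.8 and 13.2 CPM in the controls, in replicate order, and 10.3, 12.3, 9.62 and 12.4 CPM in the mutants. The groups overlapped and it did not pass (interval -0.44 to 0.09, edgeR adjusted p = 0.28).

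Neogenin, encoded by Neo1 (chromosome 9, 58874687 to 59036441, minus strand, GRCm38) and a receptor for netrins and repulsive guidance molecules, had 565, 567, 601 and 543 CPM in control replicates 1 to 4 and 256, 255, 239 and 297 CPM in dcKO replicates 1 to 4. The mutants sat at 297 CPM or less against 543 CPM or more in the controls, 2.17-fold lower (log2 fold change -1.12, SE 0.08, edgeR adjusted p = 1.6e-06). DCC, the netrin attraction receptor, was at 22.4 ± 4.90 CPM in controls and 16.2 ± 5.95 CPM in mutants, with overlapping groups (interval of the log2 fold change -1.05 to 0.11, edgeR adjusted p = 0.18).

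All 4 UNC5 repulsion receptors fell. Unc5c, whose loss in mice misplaces cerebellar neurons, had 71.7, 90.9, 52.5 and 45.0 CPM in the controls, in replicate order, and 25.6, 33.8, 34.9 and 29.4 CPM in the mutants. The groups did not overlap, and control replicates 3 and 4 lay nearest to the mutants (log2 fold change -1.07, SE 0.21, edgeR adjusted p = 0.0032). Unc5a, also a dependence receptor that can trigger cell death without ligand, had 75.6, 62.8, 80.1 and 76.7 CPM in the controls, in replicate order, and 40.8, 44.0, 34.3 and 56.3 CPM in the mutants. Its mutants were all below the controls, with replicate 4 nearest to them (log2 fold change -0.75, SE 0.14, edgeR adjusted p = 0.0012).

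Unc5d, a marker of upper-layer and multipolar migrating neurons that also binds FLRT proteins, had 61.8, 58.5, 54.4 and 44.8 CPM in the controls, in replicate order, and 36.7, 43.3, 28.5 and 40.97 CPM in the mutants. No mutant reached control replicate 4, the lowest control (log2 fold change -0.55, SE 0.13, edgeR adjusted p = 0.0069). With dcKO replicates 2 and 4 alone it did not pass (-0.38, adjusted p = 0.057). Unc5b, which acts in vessels and neurons, was lower on average with overlapping groups (log2 fold change -0.38, SE 0.13, edgeR adjusted p = 0.034). That call was lost without any of control replicates 2, 3 and 4 or dcKO replicates 1, 2 and 3 (-0.29 to -0.40, adjusted p up to 0.13). Endothelial markers were lower in the mutants as given above.

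Of the netrin-Gs, which organise glutamatergic synapses, Ntng2 fell. Ntng2, whose protein binds the postsynaptic partner NGL-2, had 61.5, 50.1, 60.6 and 63.9 CPM in the controls, in replicate order, and 23.8, 32.9, 24.4 and 35.0 CPM in the mutants. The groups did not overlap and the fall was 2.03-fold (log2 fold change -1.02, SE 0.13, edgeR adjusted p = 1.3e-04). The non-coding gene 6530402F18Rik shares 14.0% of the Ntng2 exon length on the same strand and had 29.5, 22.2, 24.6 and 26.6 CPM in controls and 10.2, 12.7, 10.6 and 14.5 CPM in mutants, so reads there may have been assigned to either. Ntng1 did not pass (interval -0.71 to -0.07, edgeR adjusted p = 0.054). It passed without control replicate 4 (-0.50, adjusted p = 0.025), without dcKO replicate 2 (-0.52, adjusted p = 0.022), with DESeq2 (adjusted p = 0.038) and with no filter on low counts (adjusted p = 0.039).

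**Figure D4:**
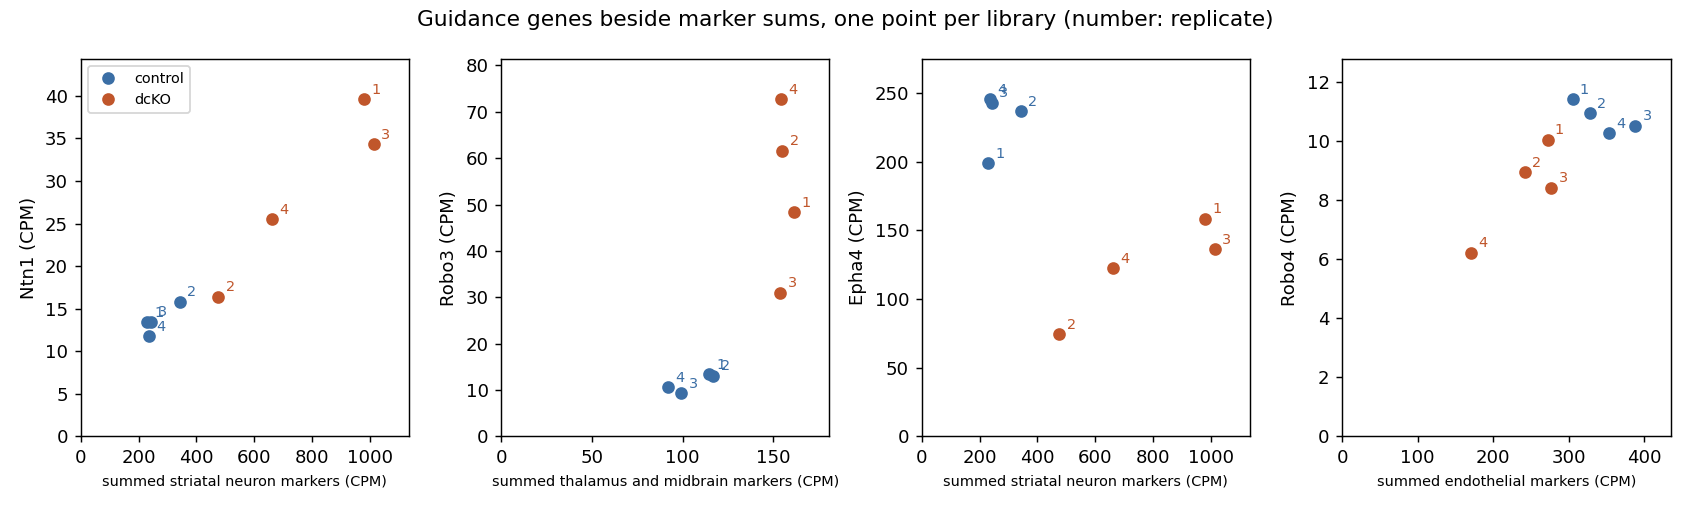
Level of Ntn1, Robo3, Epha4 and Robo4 in CPM (vertical axes) against the summed CPM of a marker list (horizontal axes), 1 point per library, control in blue and dcKO in orange, numbers giving the replicate. Ntn1 is highest in the mutants with the highest striatal sums, and Robo4 is lowest in the mutant with the lowest endothelial sum.

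Levels between genes were compared per length, as CPM per kb of merged exons. The most abundant members in controls were Efnb3 (93.0 CPM per kb), Neo1 (65.3) and Ephb6 (38.04). Summed over a role, DCC family receptors went from 67.0 ± 2.93 to 31.3 ± 3.20 CPM per kb (SD, n = 4), netrin-Gs from 16.5 ± 1.36 to 8.59 ± 1.605 and UNC5 receptors from 29.5 ± 1.32 to 18.1 ± 2.76. EphB receptors went from 74.2 ± 3.65 to 47.2 ± 3.05, ephrin-As from 51.9 ± 4.66 to 37.5 ± 2.06 and EphA receptors from 71.6 ± 3.14 to 52.8 ± 6.01. In these 6 roles every mutant lay below every control. Neo1 made up 97.5% of the DCC family sum in controls and Ntng2 89.4% of the netrin-G sum. Those sums therefore mainly follow Neo1 and Ntng2.

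The sums of the other 4 roles overlapped between groups. Ephrin-Bs went from 133 ± 13.4 to 142 ± 16.1 CPM per kb, Robos from 30.6 ± 1.40 to 31.3 ± 3.35, Slits from 17.6 ± 1.91 to 13.1 ± 2.31 and secreted netrins from 5.59 ± 0.376 to 7.69 ± 1.37. Within the nearly level Robo sum, the share of Robo3 went from 5.55% to 24.7% and that of Robo2 from 55.1% to 37.7%, both without overlap. These shares depend on the length used. Robo1 exceeded Robo2 in dcKO replicate 4 by merged exons, and in dcKO replicates 2 and 4 by the longest transcript. Ntn4 was the more abundant netrin in all controls, and Ntn1 in dcKO replicates 1, 3 and 4.

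**Figure D5:**
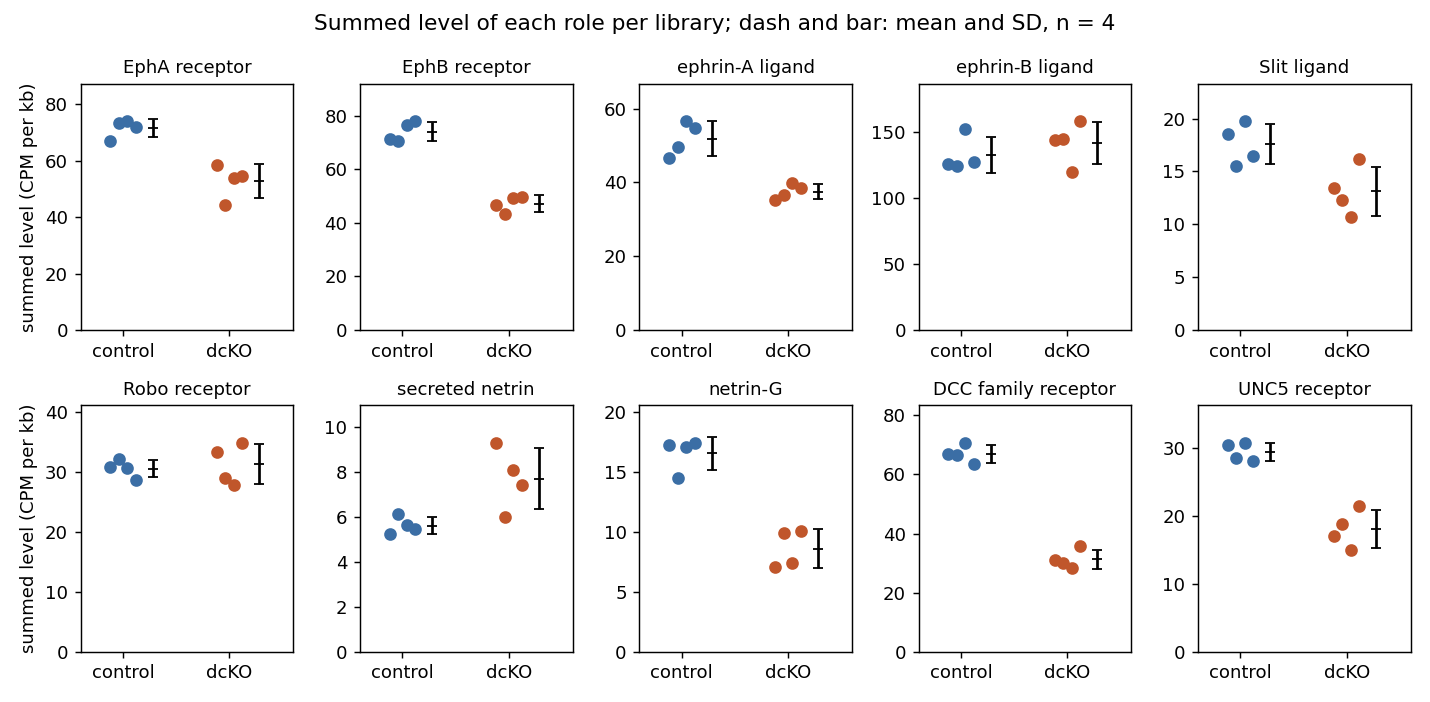
Summed level of each role per library in CPM per kb (vertical axes start at 0), control in blue and dcKO in orange, with mean and SD (n = 4) as black dash and bar. The DCC family, UNC5, netrin-G, EphA, EphB and ephrin-A sums separate the groups and the other 4 overlap.

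The other pathway genes were a list of 54 effectors, adaptors, co-receptors and other ligands. All 54 were tested, 33 were lower and 4 were higher (68.5%, against 37.5% of all genes tested). Their median log2 fold change was -0.28. The 4 largest falls were in Rgma, a neogenin ligand that had 316 and 149 CPM on average (log2 fold change -1.08, SE 0.11, edgeR adjusted p = 2.3e-05), Vav3, which acts downstream of Eph receptors (log2 fold change -0.97, SE 0.15, edgeR adjusted p = 5.0e-04), Ablim1, an actin-binding protein linked to netrin signalling (log2 fold change -0.91, SE 0.09, edgeR adjusted p = 1.1e-05), and the reelin adaptor Dab1 (log2 fold change -0.88, SE 0.08, edgeR adjusted p = 1.1e-05). The 4 that rose were Grb10, an adaptor of receptor tyrosine kinases (log2 fold change 0.62, SE 0.10, edgeR adjusted p = 4.7e-04), Ngef, an Eph receptor-linked exchange factor (log2 fold change 0.54, SE 0.19, edgeR adjusted p = 0.046), Ablim3 (log2 fold change 0.50, SE 0.08, edgeR adjusted p = 7.3e-04) and the Ras GTPase-activating protein Rasa1 (log2 fold change 0.28, SE 0.09, edgeR adjusted p = 0.029). The groups overlapped for Ngef, with dcKO replicate 2 at 86.6 CPM inside the control range of 83.2 to 108 CPM, and its call was lost when any library other than dcKO replicate 2 was left out (0.39 to 0.70 over all 8, adjusted p up to 0.11). That of Rasa1 was lost when any library other than control replicate 1 or dcKO replicate 3 was left out (0.21 to 0.35 over all 8, adjusted p up to 0.084). With 1 library left out, 2 to 3 genes of the list were higher.

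The same direction as in the pooled fit was seen within the lanes for 24 of 24 called members in lane 5, 23 of 24 in lane 6, where Efnb3 differed, and 24 of 24 in lane 7. Lanes 6 and 7 held 1 sample of each group. The called members came from these same libraries. For the 21 whose groups did not overlap, any lane had to give the same direction. The lane counts are therefore a description and no independent check.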

How the data were processed

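RNA of 8 P3 cortices was sequenced with the TruSeq RNA kit. The authors deposited raw counts, made with featureCounts from reads aligned to mm10. The aligner, annotation, strand setting and handling of ambiguous reads are not given in the sources used here. Gene names and coordinates came from GENCODE vM21 (GRCm38), which matched 48349 of 48709 identifiers. The members, pathway list and marker lists were chosen with earlier results of these data known, and every member is accounted for. Values in every sample are given for members with an adjusted p under 0.05 and a log2 change of 0.5 or more in size, and for the most abundant of each role. Groups were compared with edgeR 4.0.16 (R 4.3.3), TMM normalization, its filter on low counts (minimum 10), the robust quasi-likelihood F test and Benjamini-Hochberg adjustment over 16525 genes. The labels do not say whether replicates were separate litters, so p-values measure the spread between these samples. No replicate pair agreed within sampling noise. Alternatives were DESeq2 1.42.0, limma 3.58.1 (voom), other scalings and filters, replicate and lane blocks, and leaving out each library. 3 counts equal 0.148 CPM in the shallowest library, and intervals cover counting error and the spread between samples.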

Additional observations from a re-analysis of the deposited data

Results flagged for a closer look

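A library that stood far from the other 3 of its group was looked for in 76 groups of members, by Dixon's test at 95%, which flags about 3.8 such groups by chance. It found 3. In dcKO replicate 2, Epha3 was the highest mutant value, at 62.1 CPM, with its gap to the next mutant taking 0.850 of the range. In control replicate 2, Epha8 was the lowest control, at 39.5 CPM. In control replicate 3, Efnb3 was the highest control, at 337 CPM.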

How the results depend on the processing

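The members' counts, 19 lower and 5 higher, stayed within 1.5 times under every alternative: DESeq2 gave 22 and 5, no filter 21 and 5, at least 10 counts in every sample 19 and 5, DESeq2's size factors and limma-voom 19 and 5, library totals 17 and 5, and lane as a block 22 and 5. Efna2, Ntng1 and Robo4 passed with DESeq2, Epha2, Efna2 and Robo4 with lane as a block, and Slit3 and Unc5b did not pass with library totals. Without 1 library the members' counts were 17 to 20 lower and 4 to 5 higher. Over all genes the counts without 1 library were 2375 to 3273 lower and 2199 to 3308 higher. Library totals shifted the median log2 change of all genes from 0.024 to 0.15 and gave 21 pathway genes lower and 7 higher. With them Epha8, Ephb1 and Ephb4 turned direction (0.012, 0.076 and 0.0897), while their changes relative to the shift stayed negative, and the EphB sum was -0.53 as a log2 ratio. The pathway list had 26 to 36 lower and 2 to 3 higher without 1 library. Without 1 library, the log2 change of Epha8 ranged from -0.24 to 0.045, of Ephb1 from -0.13 to 0.019, of Ephb4 from -0.12 to 0.10 and of Robo1 from -0.033 to 0.076. With dcKO replicates 3 and 4 alone, 1581 genes were lower and 1388 higher over all genes, and 16 pathway genes were lower, with fewer samples in the fit.

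Same-numbered samples shared a sequencing lane (replicates 1 and 2 of both groups lane 5, 3 lane 6, 4 lane 7), and nothing in the labels gives them a shared litter or culture. Their deviations from the group means correlated at 0.17, -0.068, 0.21 and -0.024, so the numbers were not taken as pairs. Of the 4 controls, only replicate 3 correlated best with the mutant of its own number. With the replicate block, 20 members were lower and 5 higher, and 29 pathway genes were lower and 4 higher. Slit3 and Unc5b did not pass with the block, and Epha2, Efna2 and Ntng1 did.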
